A study of Mus musculus with 12 samples.

Results

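The femoral bone marrow of mice given Qi-Jing-Sheng-Bai granule (QJSB) together with cyclophosphamide was compared with the marrow of mice given neither. The comparison took the 3 QJSB libraries and the 3 normal libraries, 6 of the 12 libraries sequenced, and every gene with enough reads. Of 34745 genes in the deposited table, 14817 were tested. All mice were male ICR, an outbred strain, and each library held RNA of total femoral marrow cells of 1 mouse, depleted of ribosomal RNA before sequencing. The QJSB group received 3 g/kg/day of the granule by mouth for 1 week and 80 mg/kg/day of cyclophosphamide, an alkylating drug that kills dividing cells, by intraperitoneal injection from day 5 to day 7. The normal group received saline by both routes and neither drug. The model group, used beside the members below, received the same cyclophosphamide with saline in place of the granule. No group received QJSB alone, so against the normal group the effect of the granule and that of cyclophosphamide cannot be told apart. The direct comparison that differs by the granule is QJSB against model.

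Bone marrow makes the red cells, granulocytes, monocytes, platelets and B lymphocytes of the blood from stem and progenitor cells. Dividing precursors of red cells and of B cells are among its most abundant cells in a healthy mouse. Neutrophils are made in a fixed order, in which promyelocytes fill their primary granules with proteases before later stages fill secondary granules and leave the cycle. Stromal cells, osteoblasts and endothelium form the niche in which these cells grow.

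Total counts were 14164054 to 14876552 in the normal group and 16758401 to 18545198 in the QJSB group, so the QJSB libraries were deeper without overlap, and levels below are in CPM, the count of a gene scaled to the normalised size of its library, in the order of replicates 1, 2 and 3. The defining genes of marrow were present in every normal library, with summed levels of 29140.0 to 33460.0 CPM over the late neutrophil genes, 14900.0 to 18930.0 CPM over the globin and haem genes and 2247 to 2423 CPM over the mature B cell genes. QJSB 1 stood apart from the other QJSB libraries. The chi-square per degree of freedom between replicates was 107 for QJSB 1 and 2, 85.3 for QJSB 1 and 3 and 29.9 for QJSB 2 and 3, against 10.9 to 15.5 among normal libraries. The mean log2 CPM of 20 late neutrophil genes was 7.12 in QJSB 1 against 9.49 and 9.16 in QJSB 2 and 3, and that of the stromal and osteoblast genes 4.13 against 2.52 and 2.50. Skeletal muscle genes stood at a mean log2 CPM of 4.36 in normal 3 and 3.63 in QJSB 1, against -0.34 and -0.06 in normal 1 and 2 and 1.29 and 0.93 in QJSB 2 and 3. Where leaving out QJSB 1 or normal 3 moved a list's count of at least 3 calls by more than 1.5 times, the count without that library is given.

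A gene was called where it differed by more than 1.5-fold either way with an adjusted p under 0.05 in edgeR's quasi-likelihood test, and an error after ± beside a log2 fold change is the SE of that fit. In QJSB against normal 5616 of 14817 genes were called, or 37.9%, with 2661 higher (18.0%) and 2955 lower (19.9%) in the QJSB group. The counts called in each list below stand beside these shares. A list with a share near 37.9% was called about as often as genes at large. The same fold with an unadjusted p under 0.05, the cutoff of the study, was passed by 6159 genes (41.6%). Of the genes called, 1434 rose and 2055 fell at least 2-fold, and 87 rose and 693 fell at least 8-fold. The genes called lower held 29.7% ± 0.53 (SD, n = 3) of the counts of the normal group and 11.1% ± 0.44 (SD, n = 3) of those of the QJSB group. The genes called higher held 13.95% ± 0.49 and 30.8% ± 0.71 (SD, n = 3 each). Without QJSB 1, 2822 genes were called higher and 3329 lower. In model against normal, which shares the normal libraries, 5171 of 14752 genes were called (35.1%), with 2368 higher and 2803 lower. In bulk RNA, fewer cells of a type and less RNA per cell cannot be told apart, and a change in a share of the RNA of a sample moves with the shares of all other cells.

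**Figure D1:**
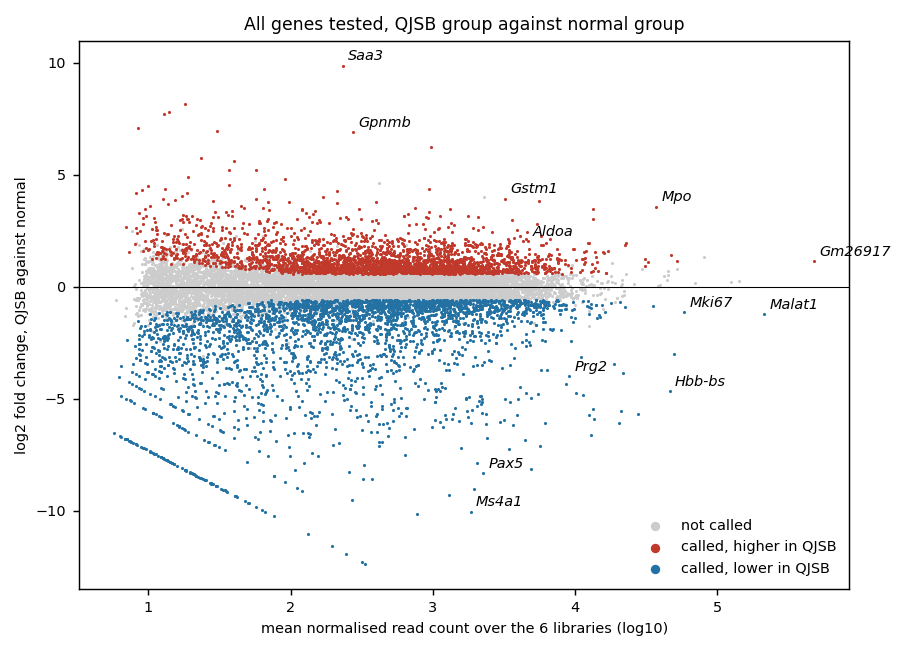
Each point is 1 of the 14817 genes tested, with the mean normalised read count over the 6 libraries (log10) on the x axis and the log2 fold change of QJSB against normal on the y axis. Red points are the 2661 genes called higher, blue points the 2955 called lower and grey points the rest; the falls reach further than the rises, and the lines of points at the lower left are genes with no or few reads in the QJSB libraries, whose fitted values are not bounds.

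B-lineage genes took most of the places among the largest falls in the QJSB group. Of 18 genes of pro-B and pre-B cells, 17 fell and 0 rose, with a median log2 fold change of -5.51 against 0.02 over all genes tested. Of 15 mature B cell genes 13 fell and 0 rose (median -5.76). Ms4a1, the gene of the B cell surface protein CD20, was at 208, 259 and 229 CPM in the normal libraries and 0.537, 0 and 0.0609 CPM in the QJSB libraries. The highest QJSB library held 10 reads of this gene where the lowest normal library held 2866, and the log2 fold change was -10.05 ± 0.55 (edgeR adjusted p = 1.81e-05). Pax5, which encodes the factor that commits cells to the B lineage, went from 286, 281 and 279 CPM to 2.42, 0 and 0.0609 CPM (log2 fold change -8.32 ± 0.96, edgeR adjusted p = 0.000661). What remained of Pax5 lay almost wholly in QJSB 1, with 45 reads against 0 and 1 in the other 2 libraries.

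Ebf1, the factor that acts with Pax5 at the start of the lineage, was at 560.4, 548 and 546 CPM in the normal group and 8.11, 2.72 and 3.23 CPM in the QJSB group (log2 fold change -6.85 ± 0.44, edgeR adjusted p = 3.48e-05). Fcer2a, the low-affinity IgE receptor of mature B cells, had no read in any QJSB library against 356, 513 and 458 reads in the normal libraries, which puts it at least 179-fold lower when 3 reads per QJSB library are taken as the floor. The same floor gives at least 143-fold for Klhl14, and at least 97.2-fold for Vpreb3, related to the surrogate light chain of the pre-B receptor. Fcmr, the IgM Fc receptor, kept 2 reads in QJSB 1 and 0 in the others, a ratio of 888 with a 95% counting interval of 245.5 to 7342, which covers counting error only. Every one of the 90 immunoglobulin variable segments tested was called lower, with a median log2 fold change of -7.42, and so were all 11 constant genes.

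The pro-B and pre-B genes were spread in how far they fell. Dntt, which encodes the terminal transferase of the earliest committed lymphoid cells, was at 79.8, 64 and 54.4 CPM in the normal group and 27.9, 4.98 and 4.81 CPM in the QJSB group, with QJSB 1 well above the others. Its log2 fold change was -2.37 ± 0.68 (edgeR adjusted p = 0.0272) with QJSB 1 and -3.74 without it. Rag1, whose product cuts the antigen receptor genes, was at 386, 270.5 and 249.6 CPM and 7.2, 0.637 and 0.183 CPM, again highest in QJSB 1, and its log2 fold change moved from -6.77 ± 1.04 to -9.47 without that library. Over the 18 pro-B and pre-B genes the median was -6.64 without QJSB 1. Myb, which progenitors of many lineages express, was the single member of this list that did not pass the threshold, at 518, 518 and 452 CPM and 689, 627 and 609.7 CPM.

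The model group had fallen in the same lists. Its median log2 fold change against the shared normal libraries was -3.78 over the pro-B and pre-B genes and -5.19 over the mature B genes. Between QJSB and model the pro-B and pre-B genes had a median of -1.97 over the 14 tested, 2 of which were positive, and 0 were called, or 2 (Rag1 and Dntt, both lower in QJSB) when replicate numbers entered the fit as a block. Rag1 was at 51.7, 14.5 and 1.27 CPM and Dntt at 85.5, 28 and 13.6 CPM in the model libraries, with model 1 above every QJSB library for both. Ebf1 was at 45.1, 13.4 and 4.04 CPM in the model libraries, with only model 3 inside the range of the QJSB libraries and the other 2 above it, and the difference between QJSB and model was -2.16 ± 0.86 on the log2 scale (edgeR unadjusted p = 0.0402, adjusted p = 0.767). Il7r, the receptor for interleukin 7 on which early lymphoid cells depend, was at 276, 265 and 265 CPM in normal, 37.3, 20.9 and 9.18 in model and 13.6, 5.09 and 5.73 in QJSB libraries (QJSB against model -1.47 ± 0.56, unadjusted p = 0.0322, adjusted p = 0.767).

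RefSeq holds promoter windows of 300 bases, from 250 before to 50 after the gene start, for 16 of the 18 pro-B and pre-B genes and 10 of the 15 mature B genes. The palindrome read by EBF1 (TCCC and GGGA with 2 bases between, either strand) was in 1 of the 12 mature B windows, in 0 of the 20 pro-B and pre-B windows and in 0.904% of 32851 windows of all genes. The single match is shown in capitals because it stands in Cd22, a surface inhibitor of B cell signalling, at chr7:30878979-30879278 of GRCm38.p6, minus strand.
Cd22: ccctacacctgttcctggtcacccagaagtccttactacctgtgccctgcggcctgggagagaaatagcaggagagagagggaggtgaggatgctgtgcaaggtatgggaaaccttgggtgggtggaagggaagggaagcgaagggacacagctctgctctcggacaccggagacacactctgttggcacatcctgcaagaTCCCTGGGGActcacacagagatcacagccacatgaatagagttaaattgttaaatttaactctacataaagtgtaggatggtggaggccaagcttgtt
Cd22 went from 55.7, 66.9 and 70.5 CPM to 1.88, 1.39 and 0.853 CPM, a log2 fold change of -5.52 ± 0.27 (edgeR adjusted p = 1.29e-05). A match is a description of the letters only.

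Other lymphoid genes fell as well. Of 14 T cell genes tested 10 fell and 0 rose (median -2.37), without QJSB 1 14 of 15 fell, and without normal 3 6 of 14 fell. Cd2, an adhesion receptor of T and NK cells, went from 17.8, 19.6 and 15.4 CPM to 0.591, 0.405 and 0 CPM (log2 fold change -5.64 ± 0.58, edgeR adjusted p = 0.000258). Of 10 NK and cytotoxic genes 9 fell and 1 rose. The 9 include Gzma, a granzyme of killer cells, at 12.8, 14.1 and 15.7 CPM and then 0.698, 1.27 and 0.975 CPM. The 1 that rose was Nkg7, which early granulocytes also express, from 20.9, 19.5 and 19.8 CPM to 143, 115 and 95.9 CPM (log2 fold change 2.57 ± 0.17, edgeR adjusted p = 3.64e-05). Of 6 plasma cell genes 4 fell and Xbp1 rose. Xbp1, the factor of the secretory stress response, is used by many secretory cells and went from 90.7, 85.4 and 81.9 CPM to 267, 250.4 and 351 CPM. Of 10 MHC class II genes 8 fell (median -2.22), among them the master regulator Ciita, from 35.5, 41.4 and 49.3 CPM to 4.62, 1.51 and 1.65 CPM (log2 fold change -3.99 ± 0.43, edgeR adjusted p = 0.000314).

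The red cell series was another large loss. All 14 genes of globin and haem synthesis tested were called lower (median -3.51), as were 14 of 15 red cell membrane genes (median -5.01) and 11 of 12 erythroid transcription factors and receptors (median -3.09). The groups did not overlap in any gene of the 3 lists, where 58.0% of all genes tested had groups that did not overlap. Hbb-bs, an adult beta globin, was at 6725, 3720.2 and 6355 CPM in the normal libraries and 268, 270.2 and 116 CPM in the QJSB libraries (log2 fold change -4.67 ± 0.41, edgeR adjusted p = 0.000134). The globin genes share near-identical copies, so the split of reads among them is uncertain.

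The receptors and transcription factors of the series were lower too. Epor, the erythropoietin receptor, went from 41.8, 47.5 and 54.6 CPM to 4.08, 1.39 and 1.1 CPM, and Tfrc, the transferrin receptor that brings in iron for haem, from 2609.8, 2655 and 2357 CPM to 240.3, 164 and 122 CPM. Gata1, the master factor of the lineage, went from 59.1, 55.4 and 60.3 CPM to 9.72, 4.46 and 3.53 CPM (log2 fold change -3.28 ± 0.36, edgeR adjusted p = 0.00035), and its partner Klf1 from 125, 133 and 120.4 CPM to 8.06, 1.85 and 0.609 CPM (log2 fold change -5.13 ± 0.77). QJSB 1 was the highest QJSB library for all 4. The ubiquitous cofactor Ldb1 was the member that did not pass the threshold (-0.35 ± 0.12, edgeR adjusted p = 0.0491). Slc2a1, the glucose transporter GLUT1 that other cells also use, was the member that rose, from 9.5, 8.3 and 11.2 CPM to 17.1, 25.8 and 20.9 CPM (log2 fold change 1.15 ± 0.20, edgeR adjusted p = 0.00308).

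Between QJSB and model the median log2 fold change was 0.00 over 13 genes of globin and haem synthesis, 0.24 over 15 membrane genes and 0.14 over 12 erythroid factors, with 0 called in each. Hbb-bs was at 1036, 122 and 85.1 CPM in the model group, with model 1 above every QJSB library and the others close to the lowest QJSB library.

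Promoter windows of 3 of these genes are shown because they hold the GATA motif AGATAA (capitals, either strand, TTATCT when read on the other strand), the site read by GATA1. The motif was in 3 of 12 windows of red cell membrane genes, in 3 of 13 of globin and haem synthesis and in 3 of 15 of erythroid factors, against 11.2% of all windows and 6.83% of the windows of genes tested. Epb42, for a protein of the membrane skeleton, lies at chr2:121036828-121037127 on the minus strand, Rhd, for a blood group protein, at chr4:134864286-134864585 on the plus strand and Alas2, for the first enzyme of haem synthesis in red cells, at chrX:150547167-150547466 on the plus strand (GRCm38.p6).
Epb42: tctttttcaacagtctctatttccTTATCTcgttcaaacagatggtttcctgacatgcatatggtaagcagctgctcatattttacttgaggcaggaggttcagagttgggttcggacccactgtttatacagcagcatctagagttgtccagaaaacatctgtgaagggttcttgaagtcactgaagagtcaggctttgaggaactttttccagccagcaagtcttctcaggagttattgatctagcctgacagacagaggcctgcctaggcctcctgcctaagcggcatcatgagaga
Rhd: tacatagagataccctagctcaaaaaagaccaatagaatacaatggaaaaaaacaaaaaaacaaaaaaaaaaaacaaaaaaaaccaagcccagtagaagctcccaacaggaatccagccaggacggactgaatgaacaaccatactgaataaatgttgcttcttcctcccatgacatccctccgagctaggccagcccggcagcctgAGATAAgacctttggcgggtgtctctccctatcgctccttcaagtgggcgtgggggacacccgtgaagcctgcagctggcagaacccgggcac
Alas2: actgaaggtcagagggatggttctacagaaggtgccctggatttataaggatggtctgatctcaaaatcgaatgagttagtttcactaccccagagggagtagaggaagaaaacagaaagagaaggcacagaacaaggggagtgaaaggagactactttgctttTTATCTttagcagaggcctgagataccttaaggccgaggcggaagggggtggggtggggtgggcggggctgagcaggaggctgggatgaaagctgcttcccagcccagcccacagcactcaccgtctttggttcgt
Epb42 went from 429, 450.2 and 478 CPM to 8.59, 7.35 and 2.74 CPM, Rhd from 131, 138 and 149.7 CPM to 3.92, 1.16 and 1.16 CPM and Alas2 from 1496, 1497 and 1618 CPM to 32.7, 35.7 and 17.1 CPM. Their log2 fold changes were -6.16 ± 0.40, -6.03 ± 0.46 and -5.74 ± 0.31.

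**Figure D2:**
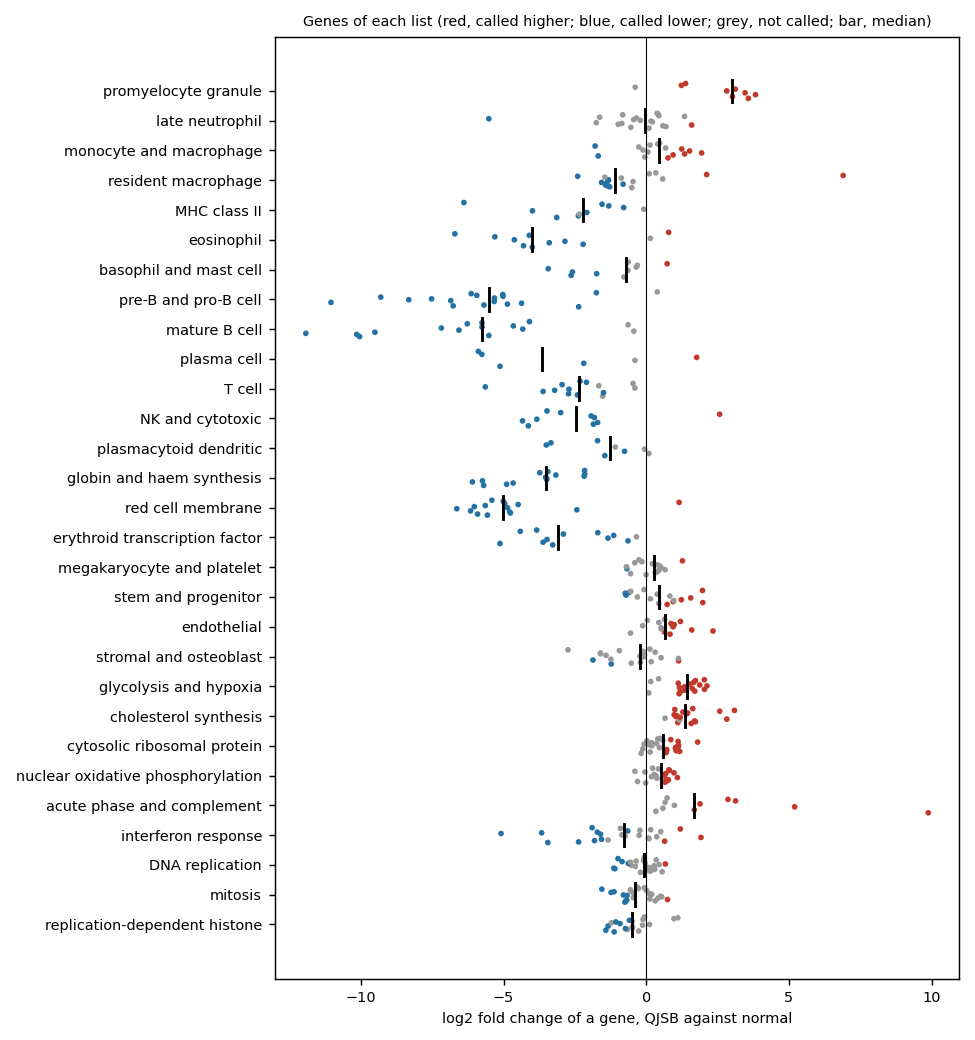
Each point is 1 tested gene of a list, with its log2 fold change of QJSB against normal on the x axis and the list on the y axis; red is called higher, blue called lower, grey not called, and the bar is the median of the list. The B-lineage, eosinophil and red cell lists lie to the left, with medians of -3.09 to -5.76 for the red cell, eosinophil and B lists, and the promyelocyte, glycolysis, cholesterol and acute phase lists to the right, with medians of 1.35 to 3.02.

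Genes of promyelocyte granules rose in the QJSB group. Of the list 8 of 9 tested were called higher and 0 lower, with a median log2 fold change of 3.02, and 8 of 9 were called higher without QJSB 1 too. Mpo, the myeloperoxidase of the primary granule, was at 415, 342 and 345 CPM in the normal libraries and 4566, 4359 and 4093 CPM in the QJSB libraries (log2 fold change 3.58 ± 0.15, edgeR adjusted p = 9.38e-06). Elane, the neutrophil elastase, went from 222, 168 and 171 CPM to 1486, 1498 and 1514 CPM and its neighbour Prtn3, proteinase 3, from 47.7, 56.4 and 35.5 CPM to 682, 689 and 591 CPM. The 3 QJSB libraries were closely alike in these genes and far above the normal libraries. Fcnb, a ficolin, was the member that did not pass the threshold, with 74.7, 11.7 and 8.83 CPM in normal and 18.6, 30.8 and 22.7 CPM in QJSB libraries. Of the 10 genes listed, Azu1 was not tested. In the model group 8 of the 9 rose as well, with a median of 2.94, and QJSB and model differed by a median of 0.14 with 0 called.

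Genes of later neutrophils were seldom called with all 6 libraries, and QJSB 1 was the lowest QJSB library in 20 of 20. Of 20 genes 1 was called higher and 1 lower (median -0.06). Without QJSB 1, 8 were called higher and 3 lower (median 0.39). Ltf, the lactoferrin of secondary granules, was at 2374, 2452 and 2458 CPM in the normal group and 648, 4296 and 2775 CPM in the QJSB group, with QJSB 1 far below and the other 2 above the normal libraries. Its log2 fold change was 0.09 ± 0.56 with all libraries (edgeR adjusted p = 0.906) and 0.55 without QJSB 1, which did not pass the fold change threshold. S100a8, for a subunit of the abundant neutrophil protein calprotectin, followed the same order, with 7949, 7850.2 and 5993 CPM in normal and 2356, 12964 and 9731 CPM in QJSB libraries (log2 fold change 0.21 ± 0.53, and 0.65 without QJSB 1, edgeR adjusted p = 0.0127).

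The 2 genes called with all libraries were Cd177 and Il1b. Cd177, a surface protein of neutrophils, was at 547, 495 and 574 CPM in normal and 535, 2391 and 1901 CPM in QJSB libraries, and was the gene called higher (log2 fold change 1.59 ± 0.48, edgeR adjusted p = 0.03). That call was lost under 8 of 14 other settings, among them without QJSB 2, without QJSB 3 and without each normal library, with adjusted p up to 0.097. Retnlg, a resistin-like gene of mature neutrophils, was at 1213, 1288 and 1183 CPM and 9.67, 739 and 338 CPM, below the normal libraries in all 3 (log2 fold change -1.75 ± 1.12, edgeR adjusted p = 0.242, and -1.18 with adjusted p = 0.0394 without QJSB 1). Il1b, the gene of interleukin 1 beta, was the gene called lower, from 31.2, 43 and 23 CPM to 0.376, 0.811 and 0.914 CPM (log2 fold change -5.52 ± 0.38, edgeR adjusted p = 4.38e-05). In the model group the list had a median of -1.02 against normal, with 8 of 20 genes called lower. Between QJSB and model the median was 1.07, with 19 of 20 genes positive and 0 called, or 4 (Ltf, Ngp, Mmp25 and Cxcr2, all higher in QJSB) under the block of replicate numbers. QJSB 1 lay inside the range of the model libraries, at a mean log2 CPM of 7.12 against 6.73, 8.46 and 7.85.

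**Figure D3:**
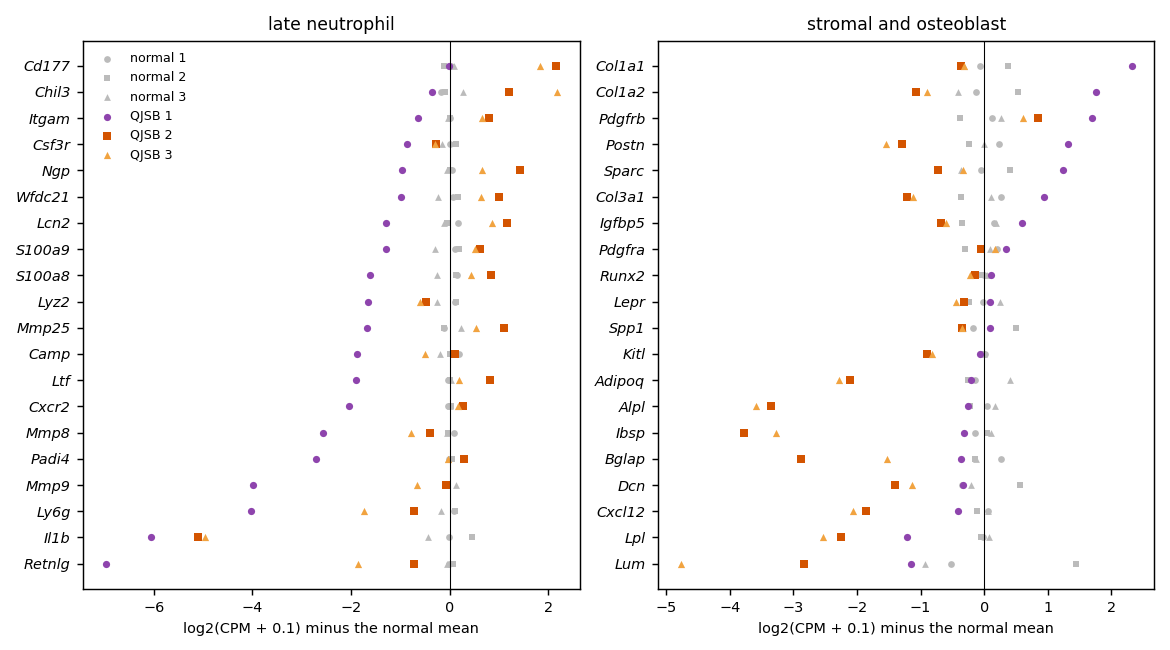
Each row is 1 tested gene of the late neutrophil list (left) or the stromal and osteoblast list (right), and the x axis is log2(CPM + 0.1) minus the mean of the 3 normal libraries; grey marks are normal libraries, and circle, square and triangle are replicates 1, 2 and 3. QJSB 1 (purple circles) lies below QJSB 2 and 3 in late neutrophil genes and above them in stromal and osteoblast genes, in 20 of 20 genes of each list.

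Eosinophil genes fell in 9 of 11 cases and rose in 1 (median -4.00). Prg2, the major basic protein of eosinophil granules, went from 1234, 987 and 1003 CPM to 136, 39.5 and 23.6 CPM (log2 fold change -4.00 ± 0.66, edgeR adjusted p = 0.00281), with QJSB 1 above the other QJSB libraries and below all normal libraries. Alox15, a lipoxygenase of eosinophils, went from 87.4, 71.2 and 79.9 CPM to 0.644, 1.16 and 0.427 CPM (log2 fold change -6.71 ± 0.29, edgeR adjusted p = 9.38e-06). Rnase2a was the member that rose, from 39.2, 47.1 and 42.9 CPM to 79.3, 73.5 and 67.3 CPM. Of 10 basophil and mast cell genes 4 fell and 1, the stem cell factor receptor Kit, rose. The call of Kit was lost without QJSB 1, without QJSB 2 and without each normal library, with adjusted p up to 0.128. Without QJSB 1 7 of 11 genes of that list fell and 0 rose. Prss34, a basophil protease, was at 49.2, 48.9 and 73.9 CPM in normal and 19.1, 5.04 and 3.11 CPM in QJSB libraries (log2 fold change -2.63 ± 0.64, edgeR adjusted p = 0.0138).

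Genes of inflammatory monocytes were among those that rose. Of 16 genes of monocytes and their macrophages 6 rose and 2 fell (median 0.43). Fn1, the fibronectin gene that inflammatory monocytes express strongly, was at 555, 625 and 613 CPM in normal and 2281, 2190.5 and 2339 CPM in QJSB libraries (log2 fold change 1.94 ± 0.12, edgeR adjusted p = 3.34e-05), and F13a1, for a coagulation factor subunit, at 526, 522 and 470.0 CPM and 1380.5, 1023 and 1410.2 CPM. The 2 that fell were Cx3cr1, the fractalkine receptor of patrolling monocytes, from 12.9, 17.1 and 15.3 CPM to 8.59, 2.03 and 3.23 CPM, and Itgax, the integrin of dendritic cells, from 17.3, 16.3 and 16.3 CPM to 8.11, 2.61 and 3.41 CPM. Of 18 genes of resident marrow macrophages 9 fell and 2 rose (median -1.08). Timd4, a receptor for dying cells, fell from 6.96, 6.73 and 6.97 CPM to 1.02, 1.97 and 0.853 CPM (log2 fold change -2.41 ± 0.34, edgeR adjusted p = 0.00109), and Hmox1, which breaks down haem, from 74.9, 56.6 and 65.9 CPM to 27.9, 27.2 and 22.1 CPM.

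The 2 that rose in that list were Gpnmb and Trem2, genes of macrophages that are loaded with lipid or debris. Gpnmb was close to absent from the normal libraries, at 0.435, 0.206 and 0.207 CPM, and was at 14.7, 38.6 and 49.2 CPM in the QJSB libraries, the second largest rise among named genes with a log2 fold change of 6.90 ± 0.61 (edgeR adjusted p = 0.00013). Trem2 rose from 1.88, 2.81 and 3.38 CPM to 14.4, 8.51 and 11.8 CPM (log2 fold change 2.11 ± 0.30, edgeR adjusted p = 0.00113). In the model libraries Gpnmb stood at 17.4, 22.6 and 31.5 CPM and Trem2 at 12.4, 16.5 and 14.7 CPM.

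Acute phase and complement genes rose. Of 11 tested 6 rose and 0 fell (median 1.68), while Saa1, Saa2 and Orm2 had no read in any of the 6 libraries. Saa3, the serum amyloid A that macrophages make, had 0, 0 and 1 read in the normal libraries and 476, 463 and 578 reads in the QJSB libraries. The ratio of the CPM was 1243, with a 95% counting interval of 222.8 to 49130.0. Cfb, complement factor B, rose from 0.217, 0.137 and 0.207 CPM to 8.32, 7.7 and 5.18 CPM (log2 fold change 5.20 ± 0.38, edgeR adjusted p = 5.54e-05) and C3, the central complement component, from 592, 611 and 605 CPM to 1008, 2929.5 and 2674 CPM. QJSB 1 was the lowest QJSB library for C3 and lay above all normal libraries. In model libraries Cfb was at 12.1, 21.7 and 7.79 CPM, and the log2 fold change of QJSB against model was -0.99 ± 0.38 (edgeR unadjusted p = 0.0307, adjusted p = 0.767).

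Genes of inflammatory cytokines fell more often than they rose. Of 13 inflammatory cytokines and chemokines tested 7 fell and 1 rose (median -1.65), and 10 of the 23 listed were not tested. Ccl6, a chemokine of myeloid cells, fell from 171, 186 and 157 CPM to 53.9, 31.7 and 23.3 CPM (log2 fold change -2.22 ± 0.29, edgeR adjusted p = 0.000818), and its neighbour Ccl9 rose from 80.4, 93.5 and 84.6 CPM to 344, 257 and 237 CPM (log2 fold change 1.71 ± 0.17, edgeR adjusted p = 0.000191). Il1rn, which encodes the antagonist of interleukin 1, fell from 22.6, 25.4 and 24.6 CPM to 3.71, 4.28 and 3.53 CPM.

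Interferon-response genes were mixed, with 10 lower and 3 higher of 24 tested (median -0.80). Rsad2, the antiviral gene viperin, fell from 250.0, 256 and 269 CPM to 7.14, 10.9 and 4.39 CPM (log2 fold change -5.09 ± 0.32, edgeR adjusted p = 2.95e-05), and Usp18, a brake on the interferon receptor, from 11.1, 11.4 and 9.59 CPM to 1.61, 0.521 and 0.305 CPM. Oas1a rose from 3.48, 2.61 and 2.21 CPM to 10.1, 12.3 and 8.59 CPM (log2 fold change 1.92 ± 0.25, edgeR adjusted p = 0.000844). The interferon-stimulated response element (GAAA and GAAA with 2 bases between, either strand) was in 10 of the 18 windows of this list (55.6%), against 3.44% of all windows. Windows of a pair of genes that fell, Isg15 for a ubiquitin-like protein and Ifit1 for an RNA-binding effector, hold it more than once and are shown with the matches in capitals. Overlapping matches in Isg15 run together. They lie at chr4:156200769-156201068, minus strand, and chr19:34640639-34640938, plus strand (GRCm38.p6).
Isg15: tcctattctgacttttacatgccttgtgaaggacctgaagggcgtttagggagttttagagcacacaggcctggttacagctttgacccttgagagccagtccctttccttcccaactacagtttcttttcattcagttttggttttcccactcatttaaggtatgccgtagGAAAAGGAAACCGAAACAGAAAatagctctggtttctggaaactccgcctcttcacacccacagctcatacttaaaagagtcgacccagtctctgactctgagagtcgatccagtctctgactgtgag
Ifit1: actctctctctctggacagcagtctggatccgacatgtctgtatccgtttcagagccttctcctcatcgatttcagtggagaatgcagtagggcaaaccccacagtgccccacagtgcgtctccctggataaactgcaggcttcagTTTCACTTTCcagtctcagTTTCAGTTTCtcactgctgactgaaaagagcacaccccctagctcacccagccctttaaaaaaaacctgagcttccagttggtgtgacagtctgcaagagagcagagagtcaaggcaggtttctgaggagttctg
Isg15 went from 5.58, 7.48 and 7.24 CPM to 0.752, 0.926 and 0.122 CPM (log2 fold change -3.45 ± 0.52, edgeR adjusted p = 0.00154) and Ifit1 from 3.77, 6.25 and 5.45 CPM to 1.5, 1.1 and 0.305 CPM (log2 fold change -2.37 ± 0.50, edgeR adjusted p = 0.00687).

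Stem and progenitor genes were higher in 6 and lower in 3 of 17 cases (median 0.44). Flt3, a receptor of multipotent and lymphoid-primed progenitors, rose from 25, 27.8 and 37.5 CPM to 126, 113 and 115 CPM (log2 fold change 1.98 ± 0.17, edgeR adjusted p = 0.000108), and Cdk6, a cell cycle kinase of progenitors, from 334, 301 and 322 CPM to 1492, 1063 and 1158 CPM (log2 fold change 1.97 ± 0.16, edgeR adjusted p = 9.27e-05). Angpt1, a ligand of the stem cell niche, was lower at 24, 19.8 and 29.1 CPM and 18.2, 12.4 and 12.7 CPM, a call lost without QJSB 2, without QJSB 3 and without normal 1 or 3, with adjusted p up to 0.11. Without QJSB 1 the list had 5 genes higher and 5 lower (median 0.23), and without normal 3 it had 4 higher and 0 lower (median 0.70). Cd34 was at 19.8, 24.9 and 23.7 CPM in normal and 56, 22.6 and 13 CPM in QJSB libraries, above the normal range in QJSB 1, within it in QJSB 2 and below it in QJSB 3.

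The endothelial genes called with all libraries were higher, and stromal genes moved with QJSB 1. Of 15 endothelial genes 8 rose and 0 fell past the threshold (median 0.64), without QJSB 1 9 rose and 1 fell, and without normal 3 4 rose. Flt1, a receptor for VEGF, rose from 4.2, 5.08 and 2.83 CPM to 22.1, 19.7 and 18.8 CPM (log2 fold change 2.34 ± 0.24, edgeR adjusted p = 0.000242). Pecam1 went the other way, at -0.55 (edgeR adjusted p = 0.00796), short of the fold change threshold, and was called lower without QJSB 1 (-0.63, edgeR adjusted p = 0.0016). The summed level of the endothelial list was 179.6 to 196.7 CPM in normal and 193.0 to 223.6 CPM in QJSB libraries, which overlap. Of 20 stromal and osteoblast genes tested 1 rose and 2 fell (median -0.21), and without QJSB 1 13 fell and 1 rose (median -1.12). Cxcl12, the chemokine that holds stem cells and B precursors in the marrow, was at 137, 122 and 137 CPM in normal and 98.9, 36.1 and 31.5 CPM in QJSB libraries, below the normal range in all 3 and furthest in QJSB 2 and 3 (log2 fold change -1.23 ± 0.42, edgeR adjusted p = 0.0477, and -1.95 without QJSB 1). That call was lost without QJSB 2, without QJSB 3 and without each normal library, with adjusted p up to 0.131. The bone matrix gene Ibsp was at 12, 13.7 and 14.2 CPM and 10.6, 0.868 and 1.28 CPM, so that QJSB 1 lay close to the normal libraries and the other 2 far below (-1.61 ± 0.84 with QJSB 1, edgeR adjusted p = 0.158, and -3.61 without it, adjusted p = 1.14e-05). Col1a1, the main collagen of bone, stood at 81.2, 109.7 and 68.3 CPM and 424, 65.7 and 67.7 CPM, high in QJSB 1 alone. The model libraries had the same feature, with Col1a1 at 305, 85 and 70.7 CPM and Ibsp at 8.49, 4.75 and 2.25 CPM. The summed level of the stromal and osteoblast list was 572.8 to 665.1 CPM in normal, 325.9 to 1192 CPM in QJSB and 361.6 to 1016 CPM in model libraries.

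**Figure D4:**
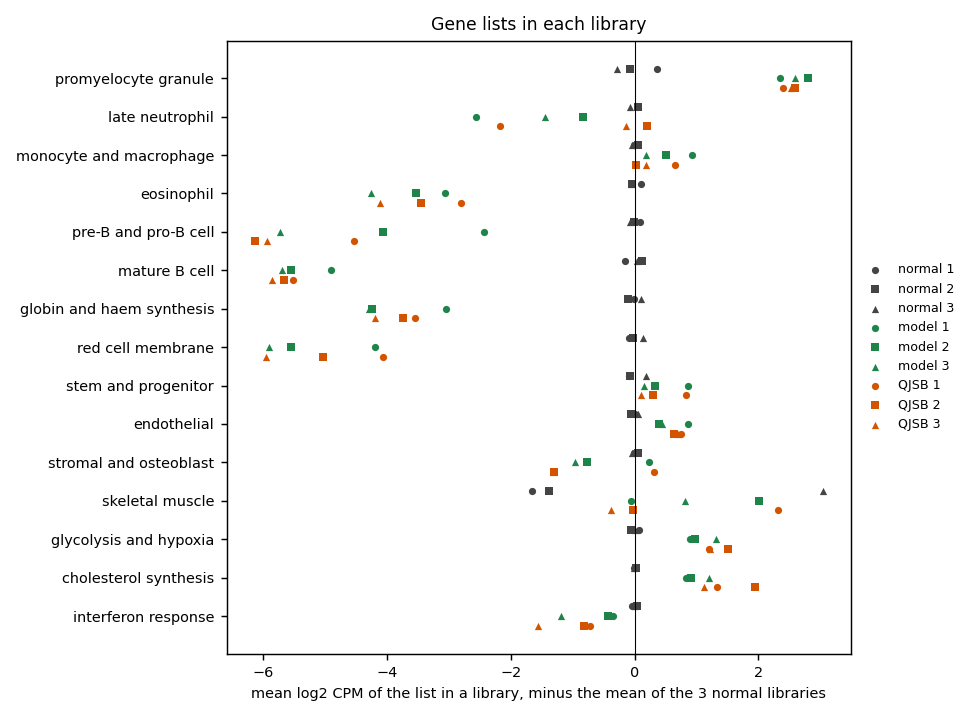
The x axis is the mean log2 CPM of a gene list in 1 library minus the mean of the 3 normal libraries, for normal (black), model (green) and QJSB (orange) libraries, with circle, square and triangle for replicates 1, 2 and 3. The B-lineage and red cell lists of all 3 QJSB libraries lie far left and the promyelocyte list lies right, while QJSB 1 departs from QJSB 2 and 3 in the late neutrophil and stromal lists and normal 3 departs in skeletal muscle.

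Megakaryocyte genes gave 1 rise and 1 fall among 16 tested, a median of 0.26, and without normal 3 4 rises and 0 falls, a median of 0.68. The integrin gene Itgb3 was at 222, 150.4 and 307 CPM in normal and 289, 274 and 313 CPM in QJSB libraries, with the QJSB values inside the normal range or just above it (log2 fold change 0.38 ± 0.24, edgeR adjusted p = 0.222). Selp, the P-selectin of platelets and endothelium, was the rise, from 3.62, 2.88 and 6.48 CPM to 10, 11.7 and 9.26 CPM. The call of Selp was lost without normal 1, with an adjusted p of 0.0575. Over the 16 genes the mean log2 CPM was 4.25 to 4.45 in the QJSB libraries, inside the 3.55 to 4.83 of the normal libraries.

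Most genes of glycolysis rose. Of 18 genes of glycolysis and the hypoxia response 15 rose and 0 fell (median 1.43), and the same counts were found without QJSB 1. Aldoa, the aldolase of glycolysis, was at 114, 104 and 128 CPM in normal and 377, 563 and 469 CPM in QJSB libraries (log2 fold change 2.04 ± 0.17, edgeR adjusted p = 9.76e-05), and Pkm, the pyruvate kinase, at 538, 528 and 495 CPM and 1193, 1868 and 1387 CPM. The lowest QJSB library was above the highest normal library by more than 2-fold for both. Egln3, an oxygen sensor that is itself induced by hypoxia, rose from 8.05, 6.45 and 8.76 CPM to 28.9, 36.2 and 29.4 CPM, and Vegfa from 11.6, 10.7 and 9.52 CPM to 20.9, 39.2 and 39.8 CPM.

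Of 18 genes of cholesterol synthesis and uptake 16 rose and 0 fell (median 1.35), and without QJSB 1 16 rose. Fdps, which makes farnesyl diphosphate, rose from 12.7, 11.5 and 12.1 CPM to 80.5, 106 and 67 CPM (log2 fold change 2.82 ± 0.19, edgeR adjusted p = 3.98e-05). In model libraries Fdps was at 44.2, 56.5 and 82.1 CPM. Model against normal gave 12 rises and 0 falls (median 0.84). The log2 fold change of QJSB against model was positive in all 18 genes (median 0.47), and 0 of them were called. Among all genes tested 6952 of 14486 were positive. By library the groups overlapped, with a mean log2 CPM of 5.188, 5.803 and 4.992 in QJSB and 4.695, 4.773 and 5.061 in model libraries. QJSB 3 thus lay below model 3. For Fdps the difference was 0.46 ± 0.26 (edgeR unadjusted p = 0.112, adjusted p = 0.767).

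Ribosomal protein genes were higher in 12 and lower in 0 of 25 cases (median 0.58), and the nuclear genes of oxidative phosphorylation in 10 and 0 of 20 (median 0.52). Rpl4, of the large ribosomal subunit, went from 744, 731 and 632 CPM to 1106, 1116 and 1146 CPM (log2 fold change 0.69 ± 0.12, edgeR adjusted p = 0.00296), and Uqcrc1, of respiratory complex III, from 91.5, 78.9 and 93.7 CPM to 212, 186 and 159 CPM (log2 fold change 1.09 ± 0.14, edgeR adjusted p = 0.000745). Genes encoded by the mitochondrial genome were called in 2 of 13 cases, 1 in each direction.

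The enzymes that use glutathione or aldehydes split. Of 15 tested 3 rose and 7 fell (median -0.33). Gstm1, a glutathione transferase, rose from 27.8, 25.7 and 21.4 CPM to 309, 435 and 391.7 CPM (log2 fold change 3.94 ± 0.18, edgeR adjusted p = 1.09e-05), and Gsr, the reductase that recycles glutathione, from 88.9, 76.3 and 91.7 CPM to 313, 489 and 347 CPM. Aldh1a1, an aldehyde dehydrogenase able to inactivate metabolites of cyclophosphamide, fell from 179.8, 186 and 163 CPM to 5.37, 3.76 and 3.05 CPM (log2 fold change -5.42 ± 0.23, edgeR adjusted p = 9.38e-06). Model libraries were at 188, 183 and 349.8 CPM for Gstm1 and 7.33, 3.05 and 2.37 CPM for Aldh1a1.

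Genes of the leukotriene and lipoxygenase list rose in 6 of 11 cases and fell in 1, the Alox15 described above. The rises were not all of synthesis enzymes and included the leukotriene receptor genes Ltb4r1 and Cysltr1. Lta4h, which makes leukotriene B4, rose from 173, 146 and 153 CPM to 438, 866 and 755 CPM (log2 fold change 2.14 ± 0.25, edgeR adjusted p = 0.000437), and Alox5ap, which presents the substrate to 5-lipoxygenase, from 97.1, 98.1 and 94.9 CPM to 166, 439 and 338 CPM. QJSB 1 was the lowest QJSB library for both. Alox5 itself was at 80.2, 90.8 and 85.8 CPM in normal, 41.7, 169 and 108 CPM in QJSB and 19.9, 47.5 and 48.4 CPM in model libraries, so the QJSB libraries lay on both sides of the normal range (QJSB against normal 0.32 ± 0.43, edgeR adjusted p = 0.571). Without QJSB 1 it was called higher, at 0.70 (edgeR adjusted p = 0.0141). Against model it was called with the block of replicate numbers, at 1.34 ± 0.20 (edgeR adjusted p = 0.0378), and not without it (1.44 ± 0.53, edgeR unadjusted p = 0.0293, adjusted p = 0.767).

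Proliferation and damage genes did not move as 1 group. Of 24 mitotic genes 8 fell and 1 rose (median -0.38), and of 26 DNA replication genes 5 fell and 1 rose (median -0.07), or 8 and 1 without QJSB 1. With all libraries the shares called either way were 37.5% and 23.1%, near and below the 37.9% of all genes tested. Both lists had more falls than rises, where 19.9% of all genes were called lower and 18.0% higher. Mki67, the proliferation antigen, fell from 4942, 5135 and 5136 CPM to 1765, 2600.0 and 2528 CPM (log2 fold change -1.13 ± 0.18, edgeR adjusted p = 0.00175), and Pcna, the clamp of the replication fork, from 233, 233 and 176 CPM to 101, 103 and 93.3 CPM (log2 fold change -1.10 ± 0.14, edgeR adjusted p = 0.000665). Plk1, a mitotic kinase, rose from 65.1, 56.6 and 69.4 CPM to 100.4, 115 and 102 CPM (log2 fold change 0.74 ± 0.12, edgeR adjusted p = 0.00206). Of 19 replication-dependent histone genes 7 fell and 0 rose. That is 36.8% called lower, against 19.9% of all genes tested. Without QJSB 1 4 fell, and likewise without normal 3.

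Of 21 targets of p53 tested 5 rose and 4 fell (median 0.06), and without normal 3 2 rose and 3 fell. With all libraries 42.9% were called, against 37.9% of all genes tested. Cdkn1a, the cell cycle inhibitor p21, rose from 17, 9.33 and 11.7 CPM to 26, 22.8 and 18.8 CPM (log2 fold change 0.84 ± 0.25, edgeR adjusted p = 0.0257), and Pmaip1, which promotes apoptosis, from 14.1, 13 and 9.17 CPM to 46.4, 49.4 and 32.7 CPM. Btg2, an antiproliferative gene, fell from 267, 236 and 246 CPM to 25.5, 51.3 and 54.1 CPM (log2 fold change -2.50 ± 0.27, edgeR adjusted p = 0.000333). Bcl2l1, which protects late red cell precursors from apoptosis, fell from 78.4, 77.6 and 84 CPM to 12.1, 20.4 and 28.1 CPM. Of 20 genes of crosslink repair 2 rose and 2 fell.

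The other lists gave these counts. Of 8 genes of plasmacytoid dendritic cells 5 fell and 0 rose (median -1.27), of 6 adipocyte genes 2 fell (median -0.90), or 4 without QJSB 1, and of 6 osteoclast genes 2 rose and 2 fell (median -0.27). Of 13 genes of the Bcl2 family 4 rose and 2 fell, of 18 genes of TGF-beta signaling 3 rose and 1 fell, and of 12 genes of phosphatidylcholine synthesis 1 rose and 4 fell. The shares called in these last lists were 46.2%, 22.2% and 41.7%, against 37.9% of all genes tested. None of the 9 skeletal muscle genes tested was called, and 1 of 8 cartilage genes had enough reads to be tested.

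Among the 12 largest named rises, several were low or absent in the normal group. Fam110c was at 0, 0 and 1.17 CPM in normal, 0.115, 0 and 0.808 CPM in model and 1.72, 12.2 and 19.6 CPM in QJSB libraries, above the normal and model libraries in every QJSB library (QJSB against normal 4.80 ± 1.29, edgeR adjusted p = 0.0211, a call lost under 5 of 13 other settings, among them without QJSB 3, normal 1 or normal 2, with adjusted p up to 0.0815). The series also holds mice given cyclophosphamide with the drug leucogen. Their libraries had 8, 34 and 92 reads of Fam110c, against 32, 210 and 322 in the QJSB libraries, so the leucogen and QJSB ranges overlapped. Against model its log2 fold change was 5.07 ± 1.19 (edgeR unadjusted p = 0.00334, adjusted p = 0.767), and with replicate numbers in the fit as a block it was 5.17 ± 0.62 and was called (edgeR adjusted p = 0.0378). Stfa2, a stefin of neutrophils, was at 7.18, 4.8 and 4.41 CPM in normal and 11.2, 227 and 98.6 CPM in QJSB libraries, with QJSB 1 far below the others and above all normal libraries (log2 fold change 4.37 ± 1.00, edgeR adjusted p = 0.0118). Lipg, the endothelial lipase, was at 1.52, 1.17 and 2.07 CPM in normal and 51.3, 13.1 and 298 CPM in QJSB libraries, and its call was lost without QJSB 1 (log2 fold change 6.62, edgeR adjusted p = 0.0526).

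**Figure D5:**
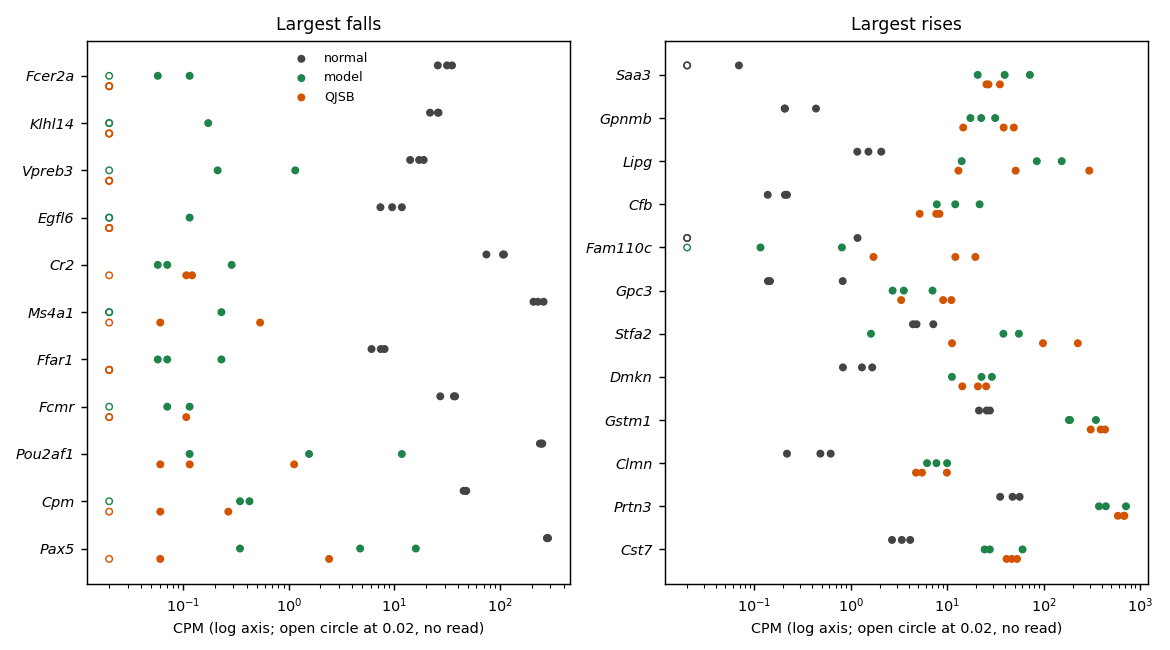
The x axis is CPM on a log scale for genes of the largest falls (left) and largest rises (right) named by rule, with normal (black), model (green) and QJSB (orange) libraries as points; an open circle at 0.02 marks a library with no read. Normal and QJSB libraries do not overlap in any gene shown, which the rule required, and Fam110c is the gene shown in which the model libraries overlap the normal and not the QJSB libraries. Leucogen libraries are not shown.

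The genes that the study names for the transcriptome were chosen on these samples, so their direction is not independent evidence. For Alox5, Cyp4f18, Ggt5, Pcyt1a and Phospho1 the paper also gives RT-qPCR. It reports them lower in model than in normal marrow and higher with QJSB than in model. Its methods take the RNA for sequencing and RT-qPCR from the same mice. Of 19 tested in QJSB against normal 0 rose and 6 fell, or 31.6% called against 37.9% of all genes tested. All of these calls were falls, where 19.9% of all genes tested were called lower. Without QJSB 1 3 rose and 8 fell of 20, and without normal 3 1 rose and 4 fell of 20. In model against normal, which shares the normal libraries, 12 of 19 fell and 2 rose. Pcyt1a, the enzyme that controls phosphatidylcholine synthesis, was at 133, 122 and 67.4 CPM in normal, 41.6, 37.4 and 97.9 CPM in model and 119, 143 and 114 CPM in QJSB libraries. Its difference from normal was 0.23 ± 0.25 in QJSB (edgeR adjusted p = 0.475) and -0.86 ± 0.43 in model (adjusted p = 0.158), and normal 3 lay below every QJSB library. Ets1, a transcription factor of lymphoid cells, was at 92.5, 98.7 and 108 CPM in normal, 27.6, 31.2 and 31.7 CPM in model and 73.4, 61.3 and 49.1 CPM in QJSB libraries, 3 groups without overlap. In QJSB against model the groups did not overlap in 9.8% of the genes tested. Its log2 fold change was -0.69 ± 0.16 for QJSB against normal (edgeR adjusted p = 0.0109, a call lost without QJSB 3) and 1.00 ± 0.19 for QJSB against model (edgeR unadjusted p = 0.000542, adjusted p = 0.767), where DESeq2 called it (1.02, adjusted p = 0.0196). Phospho1, a phosphatase of phosphocholine, was at 11.5, 10.7 and 10.2 CPM, 1.56, 1.92 and 2.08 CPM and 1.67, 5.96 and 5.12 CPM in the same order, and its call in QJSB against normal was lost without QJSB 3 and without each normal library, with adjusted p up to 0.0886. Ccr2, the receptor that draws monocytes out of the marrow, was at 210.1, 273 and 173 CPM, 419, 558 and 257 CPM and 299, 125 and 202 CPM. A p that misses the threshold does not show that QJSB and normal libraries were alike.

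QJSB against model called 0 of 14486 genes (0.0%) in edgeR, with 723 at an unadjusted p under 0.05 and a smallest adjusted p of 0.767. DESeq2 called 8, among them Ets1, Elk4, Ces2g, Magi1 and Zfp451. Same-numbered QJSB and model libraries correlated at 0.43, 0.12 and 0.11. Unlike-numbered libraries reached 0.16 (QJSB 2 with model 3) and 0.17 (QJSB 3 with model 2), so only number 1 stood out as a pair. The correlations therefore do not show a pairing for numbers 2 and 3, and calls from the blocked fit rest on an assumed pairing. That fit called 18 genes, 14 higher and 4 lower in QJSB. The 4 lower were Rag1, Pou2af1, Dntt and Zfp451. Zfp451 was at 145, 116 and 141 CPM in normal, 164, 99.6 and 115 CPM in model and 44.2, 41.5 and 57.9 CPM in QJSB libraries, so every QJSB library lay below all normal and model libraries, and DESeq2 called it too. Its level in the leucogen libraries was not compared. The 14 higher included the neutrophil genes Ltf, Ngp, Mmp25, Cxcr2 and Stfa2, the lipoxygenase Alox5, Fam110c, Ces2g, Magi1, and Elk4, a partner of serum response factor, at 305, 282 and 334 CPM, 99.7, 95.5 and 83.3 CPM and 196, 236 and 169 CPM. Without QJSB 1 and without the block 3 genes were called.

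The classes of RNA also differed. Protein-coding genes had a median log2 fold change of 0.08 with 2498 called higher and 2219 lower of 12618. Genes within introns of other genes on the same strand had a median of -0.69, with 1 called higher and 52 lower of 127, and gene models awaiting experimental evidence (TEC) a median of -0.58, with 26 higher and 304 lower of 761. Against the same normal libraries the model group had medians of -0.54 and -0.39 in these classes. Malat1, a long RNA that stays in the nucleus, fell from 18685, 18828 and 19279 CPM to 6971, 7860.4 and 9124 CPM (log2 fold change -1.23 ± 0.16, edgeR adjusted p = 0.00077). Gm26917, the gene model with the largest share of the counts, rose from 21352, 15818 and 19741 CPM to 41221, 43728 and 39913 CPM (log2 fold change 1.15 ± 0.18, edgeR adjusted p = 0.00172), and its neighbour Gm42418 from 2160.4, 1766 and 2228 CPM to 4352, 4689 and 4581 CPM. Among protein-coding genes the fifth with the shortest genomic span had a median of 0.18 and the fifth with the longest -0.01. The part of RNA quality in these values was not tested.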

How the data were processed

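Total RNA of femoral marrow cells was sequenced on the Illumina platform from strand-specific libraries depleted of ribosomal RNA. The authors filtered reads with Seqtk and aligned them with HISAT2 2.0.4 to mm10 (GRCm38.p4). The counter and its annotation are not given in the sources used here. The deposited table holds raw counts and FPKM per gene and library for 34745 genes. Its column headings were read as groups by their meaning, and by elimination where they differ from the sample titles. As a check, the mean normalised count of each of the 300 genes the study lists per comparison was recomputed over both groups. It matched within 1% for 298 of 300 genes with the normal and model columns and 300 of 300 with the QJSB and model columns. For these lists other pairs of columns matched at most 10 genes. Fold changes were not compared in this check. The authors' own comparison columns were not used, and 0 value columns were left unassigned.

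The counts as deposited were tested in R 4.3.3 with edgeR 4.0.16 (filterByExpr, TMM, robust quasi-likelihood fit), for each pair of groups alone, with Benjamini-Hochberg adjustment over all genes tested and a fold change over 1.5 either way. The mice of a group were separate animals. CPM are on TMM library sizes, and list means use log2 CPM with a prior count of 2. Alternatives were DESeq2 1.42.0, its size factors, total counts, no filter on low counts, a minimum of 10 counts in every library, 1 fit of all libraries, limma 3.58.1 on log2(FPKM + 0.1) from the authors' FPKM, the replicate number as a block, and leaving out each library. On simulated counts of 14767 genes the QJSB against normal test recovered 47.1% of 85 genes changed by 1 on the log2 scale. It recovered 91.2% of 102 genes changed by 2, with 3.62% of calls false. In the data far more genes were called, 5616 of 14817, so these rates need not hold for them. A fold against a group without reads used a floor of 3 counts per library. Intervals and floors cover counting error only.

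The comparison and the 43 lists (659 genes, 29 of them in several lists) were chosen with earlier results of these data known. Genes were named by rule: the 12 largest rises and 12 largest falls among called genes with a mean normalised count of at least 50 and no overlap of the groups, then in each list the 2 tested members of highest mean CPM, the 2 called members of largest change and the called member of largest change against the majority, then the genes the study names and the 10 genes of highest mean CPM. Cd22, Cd34, Cdkn1a, Cx3cr1, Dntt, Egln3, Elk4, Fcnb, Gata1, Hmox1, Ibsp, Ifit1, Isg15, Ldb1, Rag1, Retnlg, Rhd, Trem2, Vegfa, Zfp451 and the genes called in QJSB against model were named after their values were seen. A few genes that the rule names are not reported here. Promoter windows are from RefSeq (GRCm38.p6), and motifs were searched on both strands.

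The replicate numbers of the labels were checked for pairing over 15310 genes. Each library was taken relative to the mean of its group. Libraries of the same number correlated at 0.43, 0.12 and 0.11 between QJSB and model. QJSB 2 with model 3 (0.16) and QJSB 3 with model 2 (0.17) were higher than the same-numbered pairs of numbers 2 and 3. A pairing was thus seen for number 1 only, and the block is given beside that comparison as an alternative. Between QJSB and normal, same-numbered libraries correlated at -0.10, 0.04 and -0.06.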

Additional observations from a re-analysis of the deposited data

How the results depend on the processing

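In QJSB against normal the count of called genes was 4486 to 6151 when 1 library was left out and 4688 to 5975 under the other alternatives, against 5616. With the replicate block it was 5151. Genes past the study's own cutoff (the same fold with an unadjusted p under 0.05) were 6159, and 5082 to 6958 over all alternatives. In QJSB against model 0 genes were called in edgeR, 8 in DESeq2, 18 with the replicate block and 0 to 3 when 1 library was left out, the 3 being without QJSB 1. In model against normal 5171 genes were called, 4136 to 5436 when 1 library was left out and 4279 to 5629 otherwise, and with total counts as library sizes 56.3% of calls were higher, against 45.8%. The causes of these differences were not tested.

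Medians near 0 changed sign. The late neutrophil median was 0.06225 with a minimum count in every library, and -0.51 to 0.39 when 1 library was left out (0.39 without QJSB 1). When 1 library was left out the megakaryocyte median was -0.00385 to 0.68, the osteoclast median -0.48 to 0.0663, the DNA replication median -0.11 to 0.0073, the phosphatidylcholine median -0.22 to 0.0145 and the TGF-beta median -0.00142 to 0.16. The p53 target median was -0.16 without QJSB 2, -0.0537 without normal 2, -0.00261 without normal 3 and at most 0.097. The skeletal muscle median was 0.79 with the replicate block, 0.66 with FPKM and -1.77 to 3.41 when 1 library was left out, 3.41 being without normal 3. Myh4 was at -1.87 to 4.25, the highest without normal 3 (edgeR adjusted p = 0.0171), and Col1a2 at -1.03 to 0.94, the lowest without QJSB 1 (edgeR adjusted p = 0.0312). Of the values computed for single named genes, 2545 kept their direction and call, 87 lost the call, 24 gained it, 38 moved without a test and 2 reversed. Named calls lost under at least 3 alternatives were those of Fam110c, Cd177, Epx, Kit, Gp9, Angpt1, Cxcl12, Pdgfrb, Ctsk, Eda2r, Ggt1, Thbs1, Phospho1 and Tnfsf13b. With 3 mice a group, changes of 1 on the log2 scale were recovered for fewer than all genes on simulated counts, so genes not called may still differ.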
